A study of Mus musculus with 6 samples.

Results

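Heat shock proteins are chaperones: they bind other proteins while these fold, hold them when they unfold under heat or other stress, and pass them on for refolding or disposal. The genes described here are the 76 rows of the count table named as members of the HSP70, HSP90, HSP110, HSP60 or small heat shock protein families or as DNAJ cochaperones, together with the transcription factor Hsf1 and the cochaperones Chordc1, Bag3, Stip1 and Ahsa1, out of 35975 rows with counts. They comprise 11 HSP70 genes, 3 HSP110 genes, 3 HSP90 genes, 2 mitochondrial chaperonin genes, 8 small heat shock protein genes, 43 DNAJ genes (4 of class A, 13 of class B and 26 of class C), the 4 named cochaperones and Hsf1. The last row, Hspg2, was caught by its name alone: it encodes perlecan, a heparan sulfate proteoglycan of basement membranes, and is no chaperone.

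In the cytosol, HSP70 grips short stretches of an unfolded protein while it hydrolyses ATP. DNAJ proteins bring clients to it and start that hydrolysis, HSP110 and BAG proteins release the nucleotide, and some clients move on to HSP90. Under stress Hsf1 forms trimers that bind heat shock elements, runs of alternating GAA and TTC units, and drives a set of inducible chaperones. Brown fat burns fuel in densely packed mitochondria to make heat, and its mitochondria carry an HSP70 (Hspa9) and a chaperonin pair (Hspd1 and Hspe1) of their own.

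Messenger RNA was sequenced from interscapular brown fat, the depot between the shoulder blades, of C57BL/6 mice. Olfm4CKO mice carry Ucp1-Cre and 2 floxed alleles (Olfm4 flox/flox), so that Cre made under the promoter of the brown adipocyte gene Ucp1 cuts Olfm4, a gene for a secreted glycoprotein, in brown adipocytes; the other cells of the depot keep the gene by this design. The genotype label of the Ctrl mice is that word alone, and whether they carry Cre or floxed alleles is not stated. Age and sex are not stated either. The titles of the Olfm4CKO and the Ctrl samples alike hold a wild-type tag for Olfm4, so the groups follow the genotype label. Each group has 3 libraries, of which replicates 1 and 2 were used, because the values of both replicate 3 columns are not lined up with the gene names (Spearman rho between -0.0209 and -0.0156 with the other libraries).

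The 4 libraries used held 15547569 and 15346705 counts in Olfm4CKO and 15953676 and 17309325 counts in Ctrl. Olfm4 itself had 0 counts in each of them, which allows at most 0.193 and 0.195 CPM (counts scaled to the size of the library) in Olfm4CKO and 0.188 and 0.173 CPM in Ctrl, counting error only, so the deletion could not be checked. Brown adipocyte markers were abundant throughout, with Ucp1 at 4815 and 2944 CPM in Olfm4CKO and 5885 and 10210 CPM in Ctrl. The 4 libraries differed in other ways that the group labels do not name. The Y-linked genes Ddx3y, Eif2s3y, Kdm5d and Uty were at 0 in both Olfm4CKO libraries and in Ctrl replicate 2 and at 17.2 to 81.4 CPM in Ctrl replicate 1, and Xist was at 215 and 207 CPM in Olfm4CKO and at 0 and 49.5 CPM in Ctrl. The summed level of 10 skeletal muscle markers was 188 and 20.2 CPM in Olfm4CKO and 68.6 and 12.5 CPM in Ctrl. Every one of the 10 was highest in Olfm4CKO replicate 1, and Myh2 was at 0 in Ctrl replicate 2. Ctrl replicate 2 had the highest sums of Schwann, macrophage and T and NK cell markers. Schwann markers summed to 81.8 and 86.8 CPM in Olfm4CKO and 180 and 331 CPM in Ctrl. For macrophage markers these were 96 and 108 against 89.4 and 197 CPM. For T and NK markers they were 5.42 and 8.33 against 3.26 and 26.6 CPM. Endothelial markers summed to 1323 and 1262 CPM in Olfm4CKO and 872 and 807 CPM in Ctrl. No label says whether each library is a mouse of its own, so the p-values given here measure how libraries vary and no more. In whole tissue, fewer cells of a type and less RNA per cell cannot be told apart.

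No chaperone gene was called as different between the groups, which with 2 libraries per group does not show that the groups were alike. Of the 76 genes, 69 had enough counts to be tested, and 0 passed edgeR's quasi-likelihood test at a Benjamini-Hochberg adjusted p of 0.05, as did 0% of all 13573 genes tested, where the smallest adjusted p was 0.9998. That value is the adjusted p of each gene named here, unless another is given. Of the 69, 0 were also called by DESeq2 (0.00737% of all genes), by limma-voom (0%) and by edgeR with the replicate number as a block (0.0295%). At an unadjusted p under 0.05, edgeR had 1 chaperone gene higher in Olfm4CKO (Hsph1, against 1.5% of all genes) and 1 lower (Hspb8, against 0.612%). Both Olfm4CKO libraries lay above both Ctrl libraries for 7 of the 69, or 10.1%, beside 11.8% of all genes. Both lay below for 11, or 15.9%, beside 12.8%. The log2 fold change was above 0 for 36 genes, or 52.2% beside 48.6% of all genes, and below 0 for 33, or 47.8% beside 51.4%. Its median was 0.02, beside -0.01 over all genes tested. The 95% interval of a chaperone gene reached 0.81 to either side of its log2 fold change (median). That interval is for 1 gene, without adjustment over the genes tested. A larger change can still go uncalled: Hsph1, at 0.88, had an adjusted p of 0.9998 in edgeR.

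**Figure D1:**
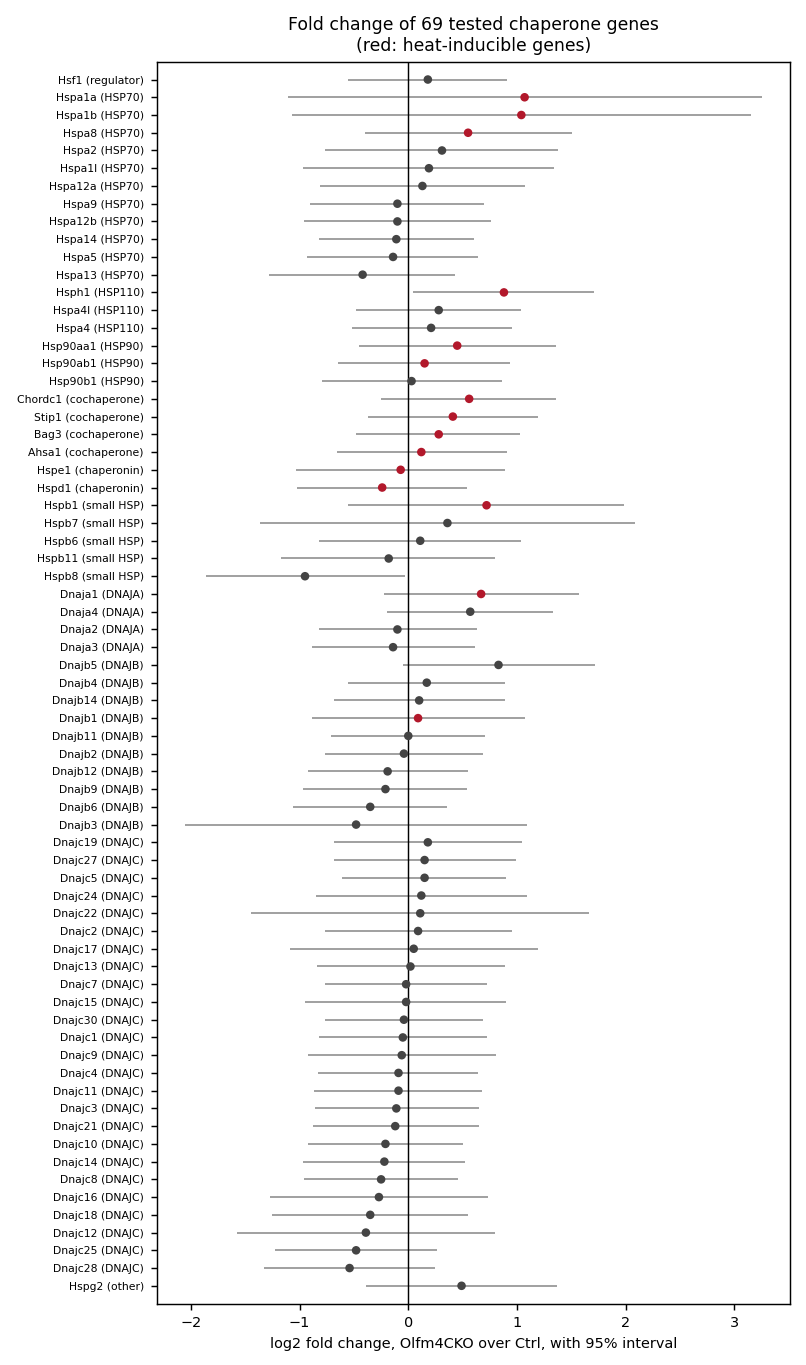
Log2 fold change, Olfm4CKO over Ctrl (x axis), of the 69 tested genes, grouped by role, from edgeR's fit on 2 libraries per group; lines are 95% intervals and red points are the 15 heat-inducible genes. The points run from -0.95 (Hspb8) to 1.07 (Hspa1a), the intervals of Hsph1 and Hspb8 are the ones that leave out 0, and the widest are those of Hspa1a and Hspa1b.

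The larger differences lay between libraries of the same group. Of the 69 chaperone genes, 32 were highest in Olfm4CKO replicate 1 (46.4%, beside 28% of all genes), 9 of them by 1.5-fold or more (13% beside 5.13%), and 29 were lowest in Olfm4CKO replicate 2 (42% beside 26.5%). A list of 15 genes known as heat-inducible from textbook knowledge (Hspa1a, Hspa1b, Hspa8, Hsph1, Hsp90aa1, Hsp90ab1, Chordc1, Stip1, Bag3, Ahsa1, Hspd1, Hspe1, Hspb1, Dnaja1 and Dnajb1), in which Hspa8 and Hsp90ab1 are also made in unstressed cells, was highest in Olfm4CKO replicate 1 for 12 genes, and by 1.5-fold or more for 7. Ctrl replicate 1 was the lowest library for 9 of the 15 and for 17 of the 69 (24.6%, beside 19.3% of all genes). It was lowest by 1.5-fold or more for 3 of the 15 (Hspa1a, Hspa1b and Dnajb1) and for 5 of the 69 (7.25%, beside 4.36%). The summed level of the 15 was 5845 and 3589 CPM in Olfm4CKO, against 3640 and 4065 CPM in Ctrl. Olfm4CKO replicate 1 therefore held the high sum, while Olfm4CKO replicate 2 was below both Ctrl libraries. Of the 15, 13 had a log2 fold change above 0, with a median of 0.45. Without Olfm4CKO replicate 1, 8 of the 15 were above 0 and the median was 0.01, and without Ctrl replicate 1, 11 were and the median was 0.12. Both Olfm4CKO libraries were above both Ctrl libraries for Hsph1, Hsp90ab1 and Chordc1 (3 of 15, beside 11.8% of all genes) and below them for Hspd1 (1 of 15, beside 12.8%). Of the other 54 tested genes, 20 were highest in Olfm4CKO replicate 1, 23 had a log2 fold change above 0, and the median was -0.05. Without Hspa1a and Hspa1b, 10 of 13 inducible genes were highest in that library and the median was 0.41. The list of 15 was chosen with earlier results of these data known, so its contrast with the other 54 is a description only.

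**Figure D2:**
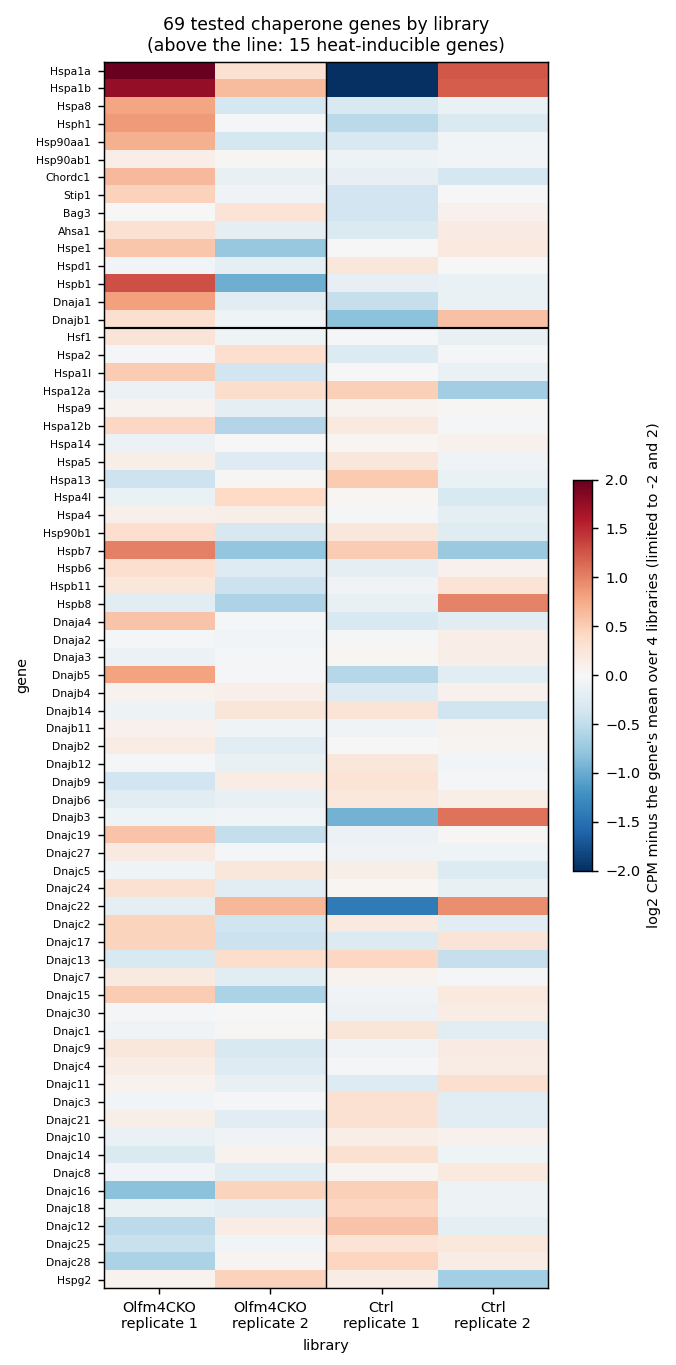
Each tested gene (rows) in each library (columns), coloured by log2 CPM minus the gene's mean over the 4 libraries, with colours limited to -2 and 2; the 15 heat-inducible genes stand above the line. Red fills most of the upper block under Olfm4CKO replicate 1, where 12 of the 15 were highest, and the darkest blue marks Hspa1a and Hspa1b in Ctrl replicate 1.

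Hspa1a and Hspa1b, the strictly inducible cytosolic HSP70 genes, lie next to each other on chromosome 17 (34969359 to 34972156 and 34956429 to 34959238, GRCm38.p6). Their coding sequences differ at 8 of 1926 aligned bases (99.6% identity), against 74.5% identity between Hspa1a and Hspa8, so reads could be assigned to either copy and their separate levels are uncertain. Their upstream sequence is a copy as well. The 100 bases that begin 176 bases before each annotated start site were taken from RefSeq (GRCm38.p6, minus strand). They are shown because both carry the same match to 2 units of a heat shock element, in capitals. Such a match was near the start sites of 17.0% of all genes, and neither gene had a longer run there.
Hspa1a, chr17:34972233-34972332: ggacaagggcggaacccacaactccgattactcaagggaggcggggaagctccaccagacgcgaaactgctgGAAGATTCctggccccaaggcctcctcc
Hspa1b, chr17:34959315-34959414: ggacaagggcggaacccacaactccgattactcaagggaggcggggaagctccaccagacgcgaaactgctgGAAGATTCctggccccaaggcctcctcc
These 2 genes moved through the libraries together and had the widest range of all the chaperones. Hspa1a had 134 and 41.7 CPM in Olfm4CKO and 2.94 and 80.5 CPM in Ctrl. Hspa1b had 128 and 58.8 CPM in Olfm4CKO and 3.13 and 87.7 CPM in Ctrl. Ctrl replicate 1 was by far the lowest for both, and Ctrl replicate 2 lay between the Olfm4CKO libraries, so the groups overlapped. Added together, which removes the question of the split, the pair had 262 and 100 CPM in Olfm4CKO and 6.07 and 168 CPM in Ctrl. Relative to Ctrl replicate 1, these were 43.1 and 16.5 times as much in the Olfm4CKO libraries and 27.7 times as much in Ctrl replicate 2. The counts behind these levels were 4056 and 1579 in Olfm4CKO and 97 and 2838 in Ctrl. The summed pair averaged 181 ± 114 CPM in Olfm4CKO and 87.2 ± 115 CPM in Ctrl (SD, n = 2 each). The log2 fold change of the sum, 1.06 ± 0.98 (standard error), had an unadjusted p of 0.305 in edgeR and a 95% interval of -1.11 to 3.22.

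The call on this pair turned on 1 control library. Without Ctrl replicate 2, leaving Ctrl replicate 1 as the lone control, the log2 fold change was 4.90 for each gene (edgeR adjusted p = 1.90e-09 for Hspa1a and 1.96e-09 for Hspa1b, where 0.19% of all genes were called). Without Ctrl replicate 1 it was 0.12 for Hspa1a and 0.09 for Hspa1b (adjusted p = 1 for both), and without Olfm4CKO replicate 1 it was 0.01 and 0.38. With Ctrl replicate 1, Olfm4CKO replicate 1 or Olfm4CKO replicate 2 left out, 0 chaperone genes were called, beside 0.175%, 0.19% and 0.042% of all genes. Ctrl replicate 1 is the library with Y-linked transcripts. It was also the high library for Fkbp5, an HSP90 cochaperone whose gene is induced by glucocorticoids, which had 11 and 4.07 CPM in Olfm4CKO and 120 and 4.27 CPM in Ctrl. The part of these differences in the values of the pair was not tested.

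The other HSP70 genes were less variable. Hspa8, the constitutive HSP70 that does most of the folding work of unstressed cells, had 1784 and 809 CPM in Olfm4CKO and 831 and 935 CPM in Ctrl. Olfm4CKO replicate 1 stood 1.91 times above the next library, and Olfm4CKO replicate 2 was the lowest. The log2 fold change was 0.55 ± 0.43 (standard error), and it was -0.11 without Olfm4CKO replicate 1. Hspa5, the HSP70 of the endoplasmic reticulum (BiP), had 343 and 265 CPM in Olfm4CKO and 371 and 302 CPM in Ctrl, and Hspa9, the mitochondrial HSP70, had 1331 and 1116 CPM in Olfm4CKO and 1328 and 1290 CPM in Ctrl. Both overlapped between the groups, with log2 fold changes of -0.14 ± 0.36 and -0.10 ± 0.36. Hspa13, a truncated HSP70 of microsomes, had 10.2 and 13.8 CPM in Olfm4CKO and 19.7 and 12.5 CPM in Ctrl (-0.42 ± 0.39). The remaining 5, Hspa1l, Hspa2, Hspa12a, Hspa12b and Hspa14, had log2 fold changes from -0.11 to 0.31. Of these, Hspa14 alone did not overlap, with 27.1 and 29.8 CPM in Olfm4CKO, below 30.2 and 31.2 CPM in Ctrl.

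HSP110 proteins, relatives of HSP70 that swap its nucleotide, included the chaperone with the smallest p. Hsph1 had 109 and 58.4 CPM in Olfm4CKO and 41.6 and 49.4 CPM in Ctrl. Both Olfm4CKO libraries were above both Ctrl libraries, replicate 1 by far the most. The mean was 83.5 ± 35.5 CPM in Olfm4CKO and 45.5 ± 5.57 CPM in Ctrl (SD, n = 2 each), with a log2 fold change of 0.88 ± 0.38 (standard error), an unadjusted p of 0.0424 and an adjusted p of 0.9998 in edgeR. The log2 fold change stayed above 0 with any library left out, at 0.38 without Olfm4CKO replicate 1 and 1.25 without Olfm4CKO replicate 2. Hspa4 had 150 and 152 CPM in Olfm4CKO and 137 and 124 CPM in Ctrl, again without overlap (log2 fold change 0.21 ± 0.33). Hspa4l had 31.7 and 45.5 CPM in Olfm4CKO and 35.6 and 28 CPM in Ctrl (0.28 ± 0.35).

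The HSP90 genes differed in how far they varied. Hsp90aa1, the inducible cytosolic form, had 396 and 188 CPM in Olfm4CKO and 194 and 233 CPM in Ctrl. Olfm4CKO replicate 1 was again the high library and replicate 2 the lowest of the 4 (log2 fold change 0.45 ± 0.41, and -0.16 without Olfm4CKO replicate 1). Hsp90ab1, the constitutive cytosolic form with 76.3% coding identity to it, varied little, with 1320 and 1223 CPM in Olfm4CKO and 1128 and 1166 CPM in Ctrl. Its groups did not overlap, but the difference was small (0.15 ± 0.36). Hsp90b1, the form of the endoplasmic reticulum (GRP94), had 250 and 160 CPM in Olfm4CKO and 232 and 168 CPM in Ctrl (0.03 ± 0.38).

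Among the cochaperones of these machines, all 4 named genes had a log2 fold change above 0, from 0.12 to 0.56. Chordc1, an HSP90-binding protein, had 51.1 and 29.3 CPM in Olfm4CKO and 29.1 and 25.6 CPM in Ctrl, with no overlap but nearly equal values in Olfm4CKO replicate 2 and Ctrl replicate 1 (0.56 ± 0.37). Stip1, which links HSP70 to HSP90, had 121 and 83.4 CPM in Olfm4CKO and 67.1 and 87 CPM in Ctrl (0.41 ± 0.36). Ahsa1, which stimulates the ATPase of HSP90, had 104 and 74.5 CPM in Olfm4CKO and 69.1 and 94.9 CPM in Ctrl (0.12 ± 0.36). Bag3, an HSP70 exchange factor that leads clients to autophagy, was the exception in order: its high library was Olfm4CKO replicate 2, with 73.9 and 88.6 CPM in Olfm4CKO and 56.4 and 77.8 CPM in Ctrl (0.28 ± 0.34). Ctrl replicate 1 was the lowest library for Stip1, Ahsa1 and Bag3. Hsf1, the transcription factor of the heat shock response, had 30.3 and 23.9 CPM in Olfm4CKO and 25 and 22.8 CPM in Ctrl (0.18 ± 0.33). Its protein is activated after translation, which messenger RNA does not show.

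**Figure D3:**
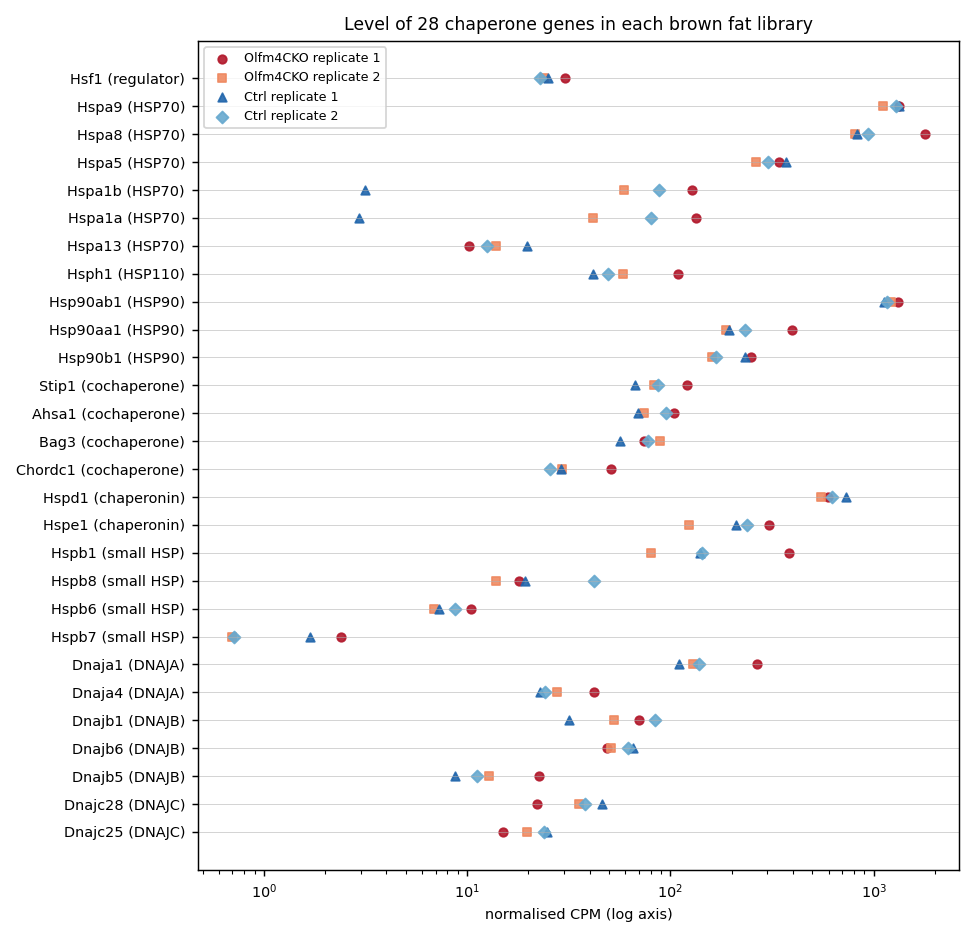
Normalised CPM (log axis) of the 28 chaperone genes given by value, one row per gene and one symbol per library. Olfm4CKO replicate 1 (dark red circles) lies to the right of the other 3 libraries for Hspa8, Hsph1, Hsp90aa1, Hspb1 and Dnaja1, and Ctrl replicate 1 (dark blue triangles) lies far to the left for Hspa1a and Hspa1b.

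The mitochondrial chaperonin pair did not share 1 pattern. Hspd1 (HSP60) had 597 and 548 CPM in Olfm4CKO and 727 and 625 CPM in Ctrl, both Olfm4CKO libraries below both Ctrl libraries (log2 fold change -0.24 ± 0.35). Hspe1 (HSP10), its lid, had 304 and 123 CPM in Olfm4CKO and 210 and 238 CPM in Ctrl, with the Olfm4CKO libraries at the top and the bottom (-0.07 ± 0.44). The 2 genes are transcribed away from each other from a shared promoter, yet Hspe1 was 2.47 times as high in Olfm4CKO replicate 1 as in replicate 2, and Hspd1 1.09 times. For the following sums, genes were assigned to a compartment by lists that may leave out other members working there. The 8 genes assigned to mitochondria (Hspa9, Hspd1, Hspe1, Dnaja3, Dnajc11, Dnajc15, Dnajc19 and Dnajc30) summed to 3035 and 2374 CPM in Olfm4CKO and 2938 and 2936 CPM in Ctrl. Of these, 7 had a log2 fold change below 0, with a median of -0.08, but 3 without Ctrl replicate 2 and 3 without Olfm4CKO replicate 2. The 8 assigned to the endoplasmic reticulum (Hspa5, Hspa13, Hsp90b1, Dnajb9, Dnajb11, Dnajc1, Dnajc3 and Dnajc10) summed to 785 and 632 CPM in Olfm4CKO and 845 and 667 CPM in Ctrl. Among these, 6 had a log2 fold change below 0 (4 without Ctrl replicate 1), with a median of -0.13, and 6 were highest in Ctrl replicate 1, as were 23.3% of all genes.

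Small heat shock proteins hold unfolding proteins without ATP, and several are abundant in muscle and heart. Hspb1 (HSP25 in mice) had 385 and 79.9 CPM in Olfm4CKO and 140 and 143 CPM in Ctrl. The Ctrl libraries were nearly equal and lay between the Olfm4CKO libraries, which differed 4.82-fold. Its mean was 233 ± 216 CPM in Olfm4CKO and 142 ± 1.6 CPM in Ctrl (SD, n = 2 each), and the log2 fold change of 0.72 ± 0.57 (standard error) was -0.81 without Olfm4CKO replicate 1. Hspb8, the partner of Bag3, had 18 and 13.8 CPM in Olfm4CKO and 19.2 and 42.1 CPM in Ctrl, with no overlap and the high value in Ctrl replicate 2. Its log2 fold change of -0.95 ± 0.42 (unadjusted p = 0.0436, adjusted p = 0.9998 in edgeR) was -0.26 without that library. Hspb6 (HSP20) had 10.4 and 6.87 CPM in Olfm4CKO and 7.26 and 8.72 CPM in Ctrl (0.11 ± 0.42). Hspb7, a form typical of heart and skeletal muscle, had 2.39 and 0.7 CPM in Olfm4CKO and 1.69 and 0.711 CPM in Ctrl (0.36 ± 0.78). The order of the libraries for Hspb7 was close to that of the summed muscle markers given above, which were also high in Olfm4CKO replicate 1 and Ctrl replicate 1, and their part in it was not tested. Hspb2, Hspb3 and Hspb9 had 14, 0 and 15 counts over the 4 libraries and were not tested.

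Of the DNAJ cochaperones, 39 of 43 were tested, of which 15 had a log2 fold change above 0 and 24 below, with a median of -0.05. The inducible class A member Dnaja1 had 267 and 129 CPM in Olfm4CKO and 110 and 138 CPM in Ctrl, with Olfm4CKO replicate 1 at 1.93 times the next library (log2 fold change 0.67 ± 0.41, and 0.08 without that library). Dnaja4 had 42.1 and 27.7 CPM in Olfm4CKO and 22.9 and 24.2 CPM in Ctrl, without overlap (0.57 ± 0.35). Dnaja2 and the mitochondrial Dnaja3, by contrast, were below Ctrl in both Olfm4CKO libraries, with log2 fold changes of -0.10 and -0.14. Dnajb1, the inducible HSP40 of class B, had 70.4 and 53 CPM in Olfm4CKO and 31.7 and 84.4 CPM in Ctrl (0.09 ± 0.45). The Ctrl libraries held its lowest and its highest value, 2.66-fold apart; Ctrl replicate 1 was the lowest for Hspa1a and Hspa1b too, but their highest value was in Olfm4CKO replicate 1. Dnajb5 had 22.7 and 12.8 CPM in Olfm4CKO and 8.7 and 11.2 CPM in Ctrl, without overlap (0.83 ± 0.40, edgeR unadjusted p = 0.0621). Dnajb6, which keeps aggregation-prone proteins soluble, had 48.9 and 51 CPM in Olfm4CKO and 65.1 and 62 CPM in Ctrl, both Olfm4CKO libraries the lower (-0.35 ± 0.32).

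Of class C, the largest class of DNAJ genes here, 17 of 25 tested genes had a log2 fold change below 0, beside 51.4% of all genes, with a median of -0.06 and a range of -0.54 to 0.18. Without Ctrl replicate 1, 13 were below 0. The ends of that range were not distinguishable from 0. Dnajc28 had 22 and 35.7 CPM in Olfm4CKO and 46 and 37.9 CPM in Ctrl (-0.54 ± 0.36), and Dnajc25 had 15 and 19.8 CPM in Olfm4CKO and 24.8 and 23.8 CPM in Ctrl (-0.48 ± 0.34). Neither overlapped between the groups, and both were lowest in Olfm4CKO replicate 1, the library in which the inducible chaperones were highest. Dnajc15 and Dnajc19, of the mitochondrial protein import motor, were 2.21 and 2.08 times as high in Olfm4CKO replicate 1 as in replicate 2. The inducible genes were mostly higher in replicate 1 as well, and so were the summed brown adipocyte markers, at 19348 against 11016 CPM. Dnajb7, Dnajb8, Dnajb13 and Dnajc6 had 24 counts or fewer over the 4 libraries and were not tested.

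**Figure D4:**
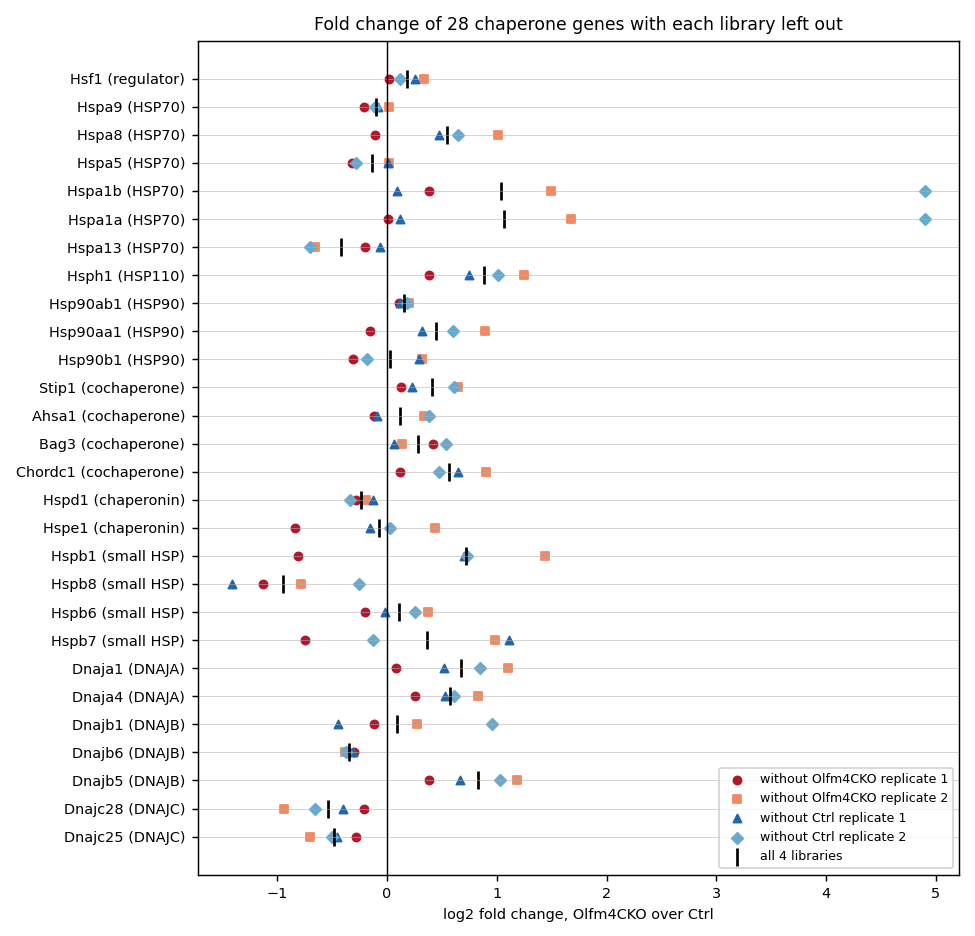
Log2 fold change, Olfm4CKO over Ctrl (x axis), of the 28 chaperone genes given by value, with all 4 libraries (black bars) and with each library left out in turn (symbols). Hspa1a and Hspa1b reach 4.90 without Ctrl replicate 2, and 11 of the 28 genes change sign in at least 1 of the 4 fits, Hspb1 and Hspa8 among them.

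Compared per length, the chaperones were abundant in brown fat. The median over the tested chaperone genes was 12.8 CPM per kilobase of the longest annotated transcript (FPKM), against 4.92 FPKM over 12868 tested genes with a length, and 8 of them were among the highest 5%. Hsp90ab1 had the highest level, with a mean over the 4 libraries of 480 FPKM. The mitochondrial HSP70 Hspa9 came next at 415 FPKM, then Hspa8 at 345, Hspd1 at 258, Hspe1 at 227 and Hspb1 at 201 FPKM. Hsp90ab1, at 448 to 524 FPKM over the 4 libraries, did not overlap Hspa9, at 366 to 436 FPKM, but each later gene in that order overlapped its neighbour, with Hspa8 spanning 256 to 565 FPKM and Hspb1 86 to 414 FPKM. The mitochondrial DNAJ protein Dnaja3, at 116 FPKM, was above Dnaja1 at 28.7 FPKM and Dnajb1 at 20 FPKM. These levels rest on the longest annotated transcript, which need not be the one expressed.

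The libraries also differed by transcript length. Genes were put in 4 length classes of near-equal size. Within Olfm4CKO, the median log2 ratio of replicate 1 over replicate 2 was 0.37 for genes whose longest transcript is at most 2175 bases, 0.06 and -0.09 in the middle classes and -0.30 for those of at least 4798 bases. Within Ctrl, replicate 1 over replicate 2 ran the other way, with medians of -0.29, -0.09, 0.12 and 0.43 from the shortest to the longest class. The short genes Hspb1 (930 bases) and Hspe1 (964 bases) had ratios of 2.26 and 1.30 in Olfm4CKO, above the 0.37 of their class. Dnaja1 and Chordc1, whose longest annotated transcripts have 5622 and 5789 bases, had 1.04 and 0.79, against -0.30 for their class. Which transcript of a gene was expressed was not measured, so a gene may be in too long a class. In all, 14 of the 15 inducible genes were above the median of their own length class, with a median ratio of 0.89, and 31 of the other 54 chaperone genes were, with a median of 0.07. Bag3 was the inducible gene below its class. In Ctrl, 13 of the 15 inducible genes were lower in replicate 1 than in replicate 2, as were 22 of the other 54. These Ctrl counts were not set against the class medians, which were themselves below 0 in the shorter classes (-0.29 and -0.09).

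**Figure D5:**
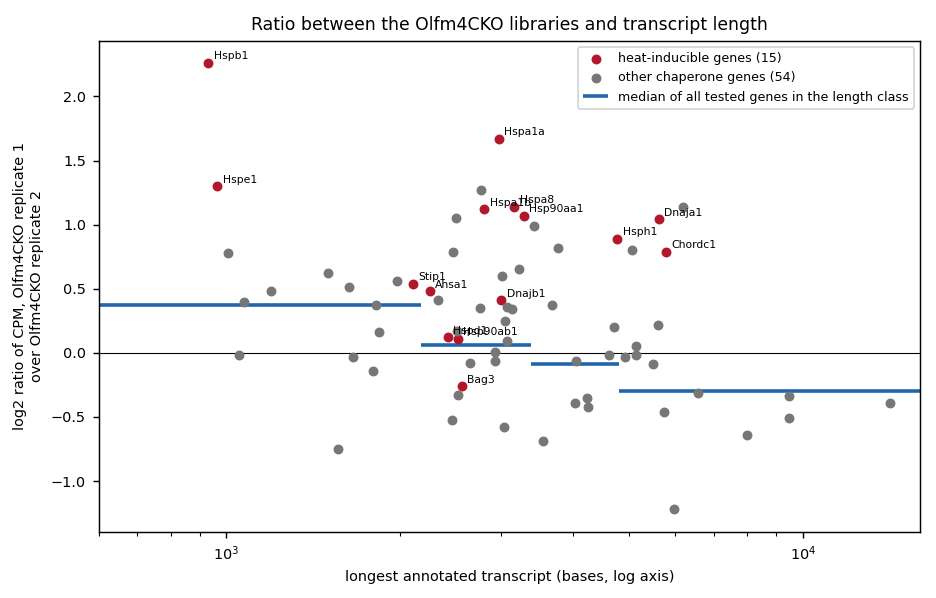
Log2 ratio of CPM in Olfm4CKO replicate 1 over Olfm4CKO replicate 2 (y axis) against the longest annotated transcript in bases (log axis); red points are the 15 heat-inducible genes, grey points the other 54 tested genes, and blue lines the median of all tested genes in each length class. The lines step down from 0.37 to -0.30, and 14 of the 15 red points lie above the line of their class.

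Heat shock elements in the promoters were described from RefSeq windows (GRCm38.p6) of 250 bases before to 50 bases after a start site, which were given for 62 of the 76 genes. The motifs searched were TTCNNGAA and GAANNTTC, where N is any base. Each is its own reverse complement, so that one strand covers both. At least 1 of them was in the windows of 17.0% of 27025 genes, 17 of the 62 chaperone genes, 9 of 12 inducible genes and 8 of the other 50. The longer runs TTCNNGAANNTTC and GAANNTTCNNGAA were in 0.662% of all genes and in 5 chaperone genes: Hsph1, Chordc1, Hspd1, Hspe1 and Dnajb6. The inducible genes with no window here were Hspa8, Hsp90aa1 and Hsp90ab1, and those whose windows lacked these letters were Stip1, Ahsa1 and Dnajb1. The following stretches are shown for genes with large differences between the libraries, each 5′ to 3′ on the gene's own strand with the motifs in capitals. They are stretches of the windows and not all motifs: Hsph1 has others after the start site, which make up its longer run.
Hspb1, chr5:135887750-135887849, plus strand: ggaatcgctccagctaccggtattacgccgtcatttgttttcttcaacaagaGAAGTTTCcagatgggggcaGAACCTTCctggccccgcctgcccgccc
Hspe1, chr1:55088053-55088082, plus strand: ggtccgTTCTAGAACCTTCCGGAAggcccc
Hsph1, chr5:149636351-149636380, minus strand: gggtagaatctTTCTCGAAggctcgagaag
Dnaja1, chr4:40722333-40722362, plus strand: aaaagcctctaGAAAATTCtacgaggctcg
Hspb1 holds 2 separate motifs and Hspe1 an unbroken run of 3 that overlap by their shared units, which lies between the start sites of Hspd1 and Hspe1. Of 16 tested chaperone genes with a motif, 10 were highest in Olfm4CKO replicate 1, beside 28% of all genes tested. Their median log2 fold change between the groups was 0.22. Of 40 tested chaperone genes whose windows had none, 16 were highest in that library and the median was -0.03. The 16 with a motif include the 9 inducible genes with one, so this comparison is not separate from that of the inducible list. A match of letters is a description and shows no binding.

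In the wider chaperone machinery, from lists outside these families, edgeR called 0 genes as well, and 1, Fkbp5, had an unadjusted p under 0.05. Among 16 HSP90 cochaperones 8 had a log2 fold change above 0 and 8 below, with a median of -0.01. Fkbp5 was the extreme, at -3.04 ± 1.06 (edgeR unadjusted p = 0.0153), with the single high Ctrl library given above. Unc45b, a myosin chaperone, had 43 and 25.3 CPM in Olfm4CKO and 22.6 and 20.4 CPM in Ctrl (0.67 ± 0.36). Of 13 HSP70 exchange factors and partners, 10 were below 0, with a median of -0.08. The smallest p among them belonged to Bag2 (-0.52 ± 0.43) and to Stub1, the ubiquitin ligase CHIP (-0.42 ± 0.34). The cytosolic chaperonin TRiC had 6 of 9 genes above 0 (median 0.04), with the largest departure in Cct6b at under 1 CPM. Prefoldin, which hands nascent actin and tubulin to TRiC, had 5 of 6 above 0 (median 0.13). All 6 were highest in Olfm4CKO replicate 1, beside 28% of all genes, though Vbp1 had 16.9 CPM both there and in Ctrl replicate 1. Their longest transcripts, of 871 to 1735 bases, put all 6 in the shortest length class given above. In that class, the median log2 ratio of Olfm4CKO replicate 1 over replicate 2 was 0.37.

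Mitochondrial chaperones and proteases outside the HSP families stood on one side of 0. All 10 (Trap1, Clpb, Clpp, Clpx, Lonp1, Yme1l1, Htra2, Afg3l1, Afg3l2 and Spg7) had a log2 fold change below 0, from -0.44 to -0.10 with a median of -0.27, and 6 of them lay below Ctrl in both Olfm4CKO libraries. Of all genes, 51.4% were below 0 and 12.8% lay below in both libraries. With 1 library left out, 8 to 10 of the 10 were below 0. The protease Htra2 had 19.6 and 21.1 CPM in Olfm4CKO and 24.4 and 30.8 CPM in Ctrl (-0.44 ± 0.33). Afg3l1, of the inner membrane, had 72.7 and 67.2 CPM in Olfm4CKO and 85 and 94.5 CPM in Ctrl (-0.36 ± 0.33). Neither passed, with unadjusted p = 0.209 and 0.295 in edgeR. Beside these, the summed brown adipocyte markers were 19348 and 11016 CPM in Olfm4CKO and 18382 and 23508 CPM in Ctrl, lowest in Olfm4CKO replicate 2, and 9 of the 10 markers had a log2 fold change below 0. Their part in the mitochondrial values was not tested.

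Genes that respond to handling and temperature were given for context. The 7 immediate early genes (Fos, Fosb, Jun, Junb, Egr1, Atf3 and Ier2) summed to 514 and 360 CPM in Olfm4CKO and 322 and 370 CPM in Ctrl. All 7 had a log2 fold change above 0 (48.6% of all genes did), with a median of 0.38. Both Olfm4CKO libraries were above both Ctrl libraries for 2, Fosb and Atf3, beside 11.8% of all genes. Fosb had 43.1 and 51.8 CPM in Olfm4CKO and 32.4 and 20.1 CPM in Ctrl (0.86 ± 0.36, edgeR unadjusted p = 0.0359). The sum was highest in Olfm4CKO replicate 1 and lowest in Ctrl replicate 1, but the single genes were not alike. In all, 4 of 7 were highest in Olfm4CKO replicate 1, and 2, Jun and Atf3, were lowest in Ctrl replicate 1. Atf3 had 27.5 and 27.9 CPM in Olfm4CKO and 5.95 and 24.4 CPM in Ctrl, with Ctrl replicate 1 apart from the other 3. Egr1 had 113 and 41.7 CPM in Olfm4CKO and 81.3 and 51.5 CPM in Ctrl, with Ctrl replicate 1 second highest. The part of handling in the chaperone values was not tested. The cold-inducible RNA-binding proteins varied less, with Rbm3 at 58.2 and 52.4 CPM in Olfm4CKO and 43.3 and 50.3 CPM in Ctrl, and Cirbp at 14.3 and 16.8 CPM in Olfm4CKO and 16.3 and 16 CPM in Ctrl. The collagen chaperone Serpinh1, also a heat shock protein by name (HSP47), had 504 and 425 CPM in Olfm4CKO and 328 and 415 CPM in Ctrl (0.32 ± 0.36). The small heat shock protein Cryab had 19.6 and 16.3 CPM in Olfm4CKO and 11 and 18.5 CPM in Ctrl (0.28 ± 0.38).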

How the data were processed

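Although its name says FPKM, the deposited table holds raw read counts: every value is a whole number and the columns have different totals. Per the submitters' processing notes, the authors used cutadapt 1.11, HISAT2 2.1.0 and featureCounts 1.6.0 on mm10. Which gene annotation and which strand setting they used is not given in the sources used here. Rows of genes that overlap, lie antisense to one another or are nearly identical can therefore hold each other's reads. Columns were matched to samples by name. Both replicate 3 columns stop after 24276 rows and were not used per gene, which leaves 2 libraries per group. Replicates 1 and 2 of a group are not 1 library deposited again: the chi-square between them was 130.1 per degree of freedom in Olfm4CKO and 85.2 in Ctrl, where counting noise gives about 1.

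Counts were filtered with filterByExpr (minimum count 10, minimum total 15), scaled by TMM and tested with edgeR 4.0.16 in R 4.3.3, using the quasi-likelihood test of Olfm4CKO over Ctrl with Benjamini-Hochberg adjustment over all 13573 genes and a threshold of 0.05. The standard errors beside log2 fold changes and the 95% intervals come from that fit. The biological coefficient of variation was 32.6%. Alternatives were no filter, 2 other scalings, DESeq2 1.42.0, limma-voom (limma 3.58.1), each library left out, the replicate number as a block, and Hspa1a and Hspa1b added together. The procedure was tested on simulated counts. Levels per length divide normalised CPM by the longest GENCODE vM21 transcript in kilobases. Log2 ratios between single libraries use a pseudocount of 0.5 CPM, and fold differences between single libraries use none. Full values go to 22 core genes, the 5 tested genes with the smallest p in each direction and the 5 with the highest level per length, 28 in all, and up to 2 genes of each other list. Genes named beyond that were chosen after their values were seen. The chaperone genes and all lists were chosen with earlier results of these data known.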

Additional observations from a re-analysis of the deposited data

How the results depend on the processing

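Over all genes tested, edgeR called 0. DESeq2 called 1, and leaving out 1 library gave 6 to 27. Of the chaperone genes 0 were called, and 0 to 2 with 1 library left out, both without Ctrl replicate 2. Their median log2 fold change of 0.02 ran from -0.12 to 0.12 with 1 library left out. A lone library was given the spread of the other group in those fits. The sign of 17, 18, 15 and 16 tested chaperone genes turned without Olfm4CKO replicate 1, Olfm4CKO replicate 2, Ctrl replicate 1 and Ctrl replicate 2, and that of 1 gene with no filter and 2 with library totals. Of the 28 genes given by value, 11 turned when a library was left out and 0 under another filter, scaling, model or block. Their log2 fold changes with 1 library left out ran from -0.11 to 1.01 for Hspa8, -0.32 to 0.02 for Hspa5, -0.21 to 0.02 for Hspa9, -0.16 to 0.89 for Hsp90aa1, -0.31 to 0.32 for Hsp90b1 and -0.84 to 0.44 for Hspe1. They ran from -0.81 to 1.44 for Hspb1, -0.20 to 0.37 for Hspb6, -0.75 to 1.11 for Hspb7, -0.45 to 0.96 for Dnajb1 and -0.12 to 0.38 for Ahsa1. Without Olfm4CKO replicate 1, the value was also 0.08 for Dnaja1, 0.12 for Chordc1, 0.13 for Stip1, 0.25 for Dnaja4 and 0.38 for Dnajb5. The cause was not tested.

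In the fit with replicate number as block, 4 genes and 0 chaperone genes were called, and the log2 fold change was 2.17 for Hspa1a and 2.29 for Hspa1b. In limma-voom, with no block, it was 2.25 and 2.36, against 1.07 and 1.04 in edgeR without it. Across 13573 genes, the deviations of Olfm4CKO replicate 1 and Ctrl replicate 1 from their group means were not correlated (r = 0.003). The summed muscle markers were higher in replicate 1 of both groups, while the trends with transcript length ran opposite ways. A single correlation over all genes cannot show whether same-numbered libraries share a batch, and no label says so.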
